A study of Mus musculus with 3 samples.

Results

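The aminoacyl-tRNA synthetases are the enzymes that load each transfer RNA with its amino acid, and 35 of their genes, taken by symbol from a fixed list, were described among the 32531 genes counted in each library. Of these, 18 encode enzymes of the cytosol, 15 encode enzymes of the mitochondrion, and Gars and Kars each encode both forms. The study used translating ribosome affinity purification (TRAP), in which ribosomes that carry an EGFP-tagged ribosomal protein L10a are pulled down from tissue and their bound RNA is sequenced. All 3 libraries form a single group of immunopurified RNA from the deep cerebellar nuclei of adult Htr6-TRAP NIDA113 mice, a transgenic EGFP/Rpl10a line on the C57BL/6J strain that is named for the serotonin receptor gene Htr6. Every library carries the transgene and none is an unpurified control, so levels are abundances in the purified RNA and the comparisons are between genes within a library. Htr6 itself had 0, 7 and 0 counts in replicates 1, 2 and 3. Whether each library is a separate animal or a pool is not stated, so p-values measure only the spread between these libraries, which may be technical.

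Synthetases fall into class I and class II by the fold of their catalytic domain. In the cytosol of mammals, some of them are held together with scaffold proteins in a multisynthetase complex, while the rest act outside it. The mitochondrial enzymes are encoded in the nucleus and imported. Glutaminyl-tRNA has no mitochondrial synthetase of its own: Ears2 first loads glutamate, and an amidotransferase converts it. Several of these genes matter in the nervous system: a mouse mutation in Aars that impairs its editing leads to loss of Purkinje cells, RARS2 mutations cause pontocerebellar hypoplasia in humans, and variants of several cytosolic synthetases cause inherited neuropathy. When amino acids run short, uncharged transfer RNA activates the kinase encoded by Eif2ak4 (GCN2), and the transcription factor ATF4 then raises many cytosolic synthetase genes.

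Counts on genes totalled 7695397, 8842058 and 7622010 in replicates 1, 2 and 3, and the limit that a count of 0 leaves, 3 counts, corresponds to 0.397, 0.34 and 0.385 CPM (counts scaled to a library size of 1e6 after TMM normalization). The 5 pan-neuronal markers summed to between 14021 and 20556 CPM, of which Snap25 alone gave 11400 to 16990 CPM and the other 4 genes 2621 to 3566 CPM. The 5 markers of glutamatergic deep nuclei neurons summed to 421 to 662 CPM, each with at least 10 counts in every library. Those of granule cells summed to 2732 to 3026 CPM and those of Purkinje cells to 4230 to 5609 CPM. Most of the Purkinje sum came from Itpr1 (3148 to 3934 CPM) and Car8 (918 to 1409 CPM). Calb1, Ppp1r17 and Pcp2 averaged 139, 60.1 and 27.6 CPM. The oligodendrocyte list summed to 2883 to 3644 CPM and the list of astrocytes and Bergmann glia to 2426 to 2782 CPM. The microglial list reached 15.3 to 31.6 CPM, with C1qa, Aif1 and Trem2 at 0. Its other genes were counted in every library, Csf1r with 113, 272 and 102 counts and Cx3cr1 with 107, 6 and 17. Synthetases are used by every cell type, and the part of each type in the levels below was not tested. In such bulk RNA, fewer cells of a type and less RNA per cell cannot be told apart.

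Cytosolic synthetase genes had higher levels than mitochondrial ones, and Lars2 was the main exception. To compare genes, counts were scaled per kilobase of exon (RPKM). The cytosolic list had a median of 6.12, 6.93 and 7.27 RPKM in replicates 1, 2 and 3, against 1.6, 0.633 and 1.54 RPKM for the mitochondrial list. The cytosolic median was the higher in each of the 3 libraries. On the log2(RPKM + 0.1) scale the difference was 1.85, 3.26 and 2.16, or 2.42 ± 0.74 (mean ± SD, n = 3 libraries), which is a 5.36-fold difference and is larger than its SD. It was 1.22 when members with fewer than 10 counts in any library were left out of both lists, and 2.92 without Lars2. Over all 12562 genes with at least 10 counts and a known exon length, the median was 3.45, 3.36 and 3.47 RPKM, so the cytosolic list lay above it and the mitochondrial list below it in each library. Of the 35 members, 21 had a mean of at least 10 CPM, against 50.9% of the 16071 genes with any count. They comprised 14 of 18 cytosolic genes, both dual genes and 5 of 15 mitochondrial genes. At least 100 CPM was reached by Nars, Eprs, Iars and Lars2, 4 of 35 members, against 12.9% of the genes with any count. Among the 34 members with at least 10 counts in all (Cars2 was below), 23 had at least 10 counts in every library, against 64.1% of all such genes. All 18 cytosolic genes had at least 3 counts in every library, against 8 of 15 mitochondrial genes and 63.7% of the genes with any count.

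**Figure D1:**
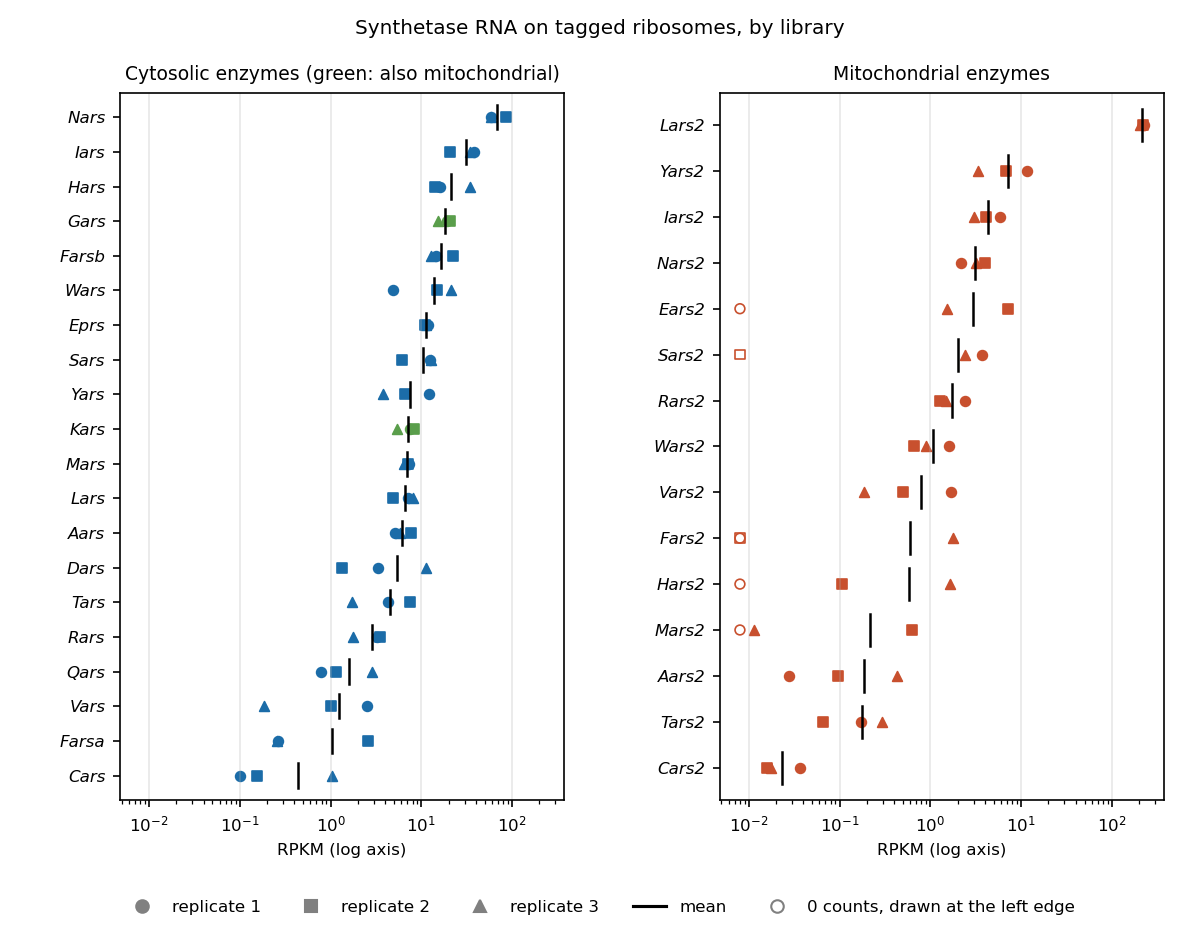
Level of each synthetase gene in each library, in RPKM on a log axis, with cytosolic and dual genes in the left panel and mitochondrial genes in the right panel, each ordered by mean. Symbols are the 3 libraries, bars are means, and open symbols are counts of 0; cytosolic means run from 0.436 RPKM (Cars) to 67.5 RPKM (Nars), mitochondrial means from 0.0233 RPKM (Cars2) to 216 RPKM (Lars2).

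Nars, which charges asparagine, was the highest cytosolic gene, with 58.2, 85.8 and 58.5 RPKM in replicates 1, 2 and 3. Iars, for isoleucine, followed with 38.4, 20.8 and 34.4 RPKM, and Hars, for histidine, with 16, 14.2 and 34.2 RPKM. The Nars values lay above every Iars value, whereas Iars and Hars overlapped. Nars (ENSMUSG00000024587.10) lies on the minus strand of chromosome 18 at positions 64499647 to 64516652 in mm10, with 15 exons in its longest coding transcript. Iars (ENSMUSG00000037851.13) lies on the plus strand of chromosome 13 at positions 49682100 to 49734267, and 3.31% of the 75-base stretches of its longest coding transcript also occur in the gene model Gm4849, so reads from both may be mixed. The next genes were Gars for glycine (18.3 ± 2.88 RPKM; SD, n = 3), Farsb for phenylalanine (16.7 ± 5.08 RPKM) and Wars for tryptophan (13.7 ± 8.29 RPKM). Eprs, a single protein that charges both glutamate and proline, was at 11.3 ± 0.385 RPKM, and Sars for serine at 10.5 ± 3.77 RPKM. The place of Eprs in this order depends on the length used. It has 18102 exon bases but 4906 in its longest coding transcript, against 5272 and 4426 for Iars. By mean CPM, Eprs (205) was above Iars (165).

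Gars and Kars, which serve both compartments, had 19.2, 20.6 and 15.1 RPKM and 7.53, 8.34 and 5.35 RPKM in replicates 1, 2 and 3. Both were highest in replicate 2 and lowest in replicate 3, with coefficients of variation (CV) of 15.7% and 21.9%. The medians of the cytosolic list lay below Gars and near Kars.

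A middle group of cytosolic genes had nearly the same mean RPKM over all exons, though their mean CPM ran from 24.1 (Mars) to 57.6 (Aars). Yars for tyrosine (7.48 ± 4.13 RPKM; SD, n = 3), Kars for lysine (7.07 ± 1.55 RPKM), Mars for methionine (7.04 ± 0.454 RPKM), Lars for leucine (6.67 ± 1.63 RPKM) and Aars for alanine (6.2 ± 1.32 RPKM) differed from their neighbours by less than the spread. Dars for aspartate (5.36 ± 5.3 RPKM) and Tars for threonine (4.55 ± 2.94 RPKM) came next. The lowest cytosolic genes were Rars for arginine (2.84 ± 0.915 RPKM), Qars for glutamine (1.61 ± 1.12 RPKM), Vars for valine (1.25 ± 1.2 RPKM), Farsa (1.04 ± 1.35 RPKM) and Cars for cysteine (0.436 ± 0.535 RPKM). Cars had 5, 9 and 54 counts in replicates 1, 2 and 3, so most of its mean comes from replicate 3. In the order of all 35 genes, 3 of the 34 neighbouring pairs were separate, with every library of the higher gene above every library of the lower: Lars2 above Nars, Nars above Iars, and Tars2 above Cars2. All other neighbours overlapped and differed by less than the SD of their difference.

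The promoters of several cytosolic genes hold a match to the amino acid response element, the sequence bound by ATF4. RefSeq promoter windows of 300 bases (250 before and 50 from the start site, build GRCm38.p6) were matched for 27 members and were searched on both strands for TGATGNAA, where N is any base. The element was found in 5 of 13 cytosolic or dual genes with a window (Aars, Gars, Iars, Tars and Yars) and in 0 of 14 mitochondrial genes. Over all genes with a window, 4.51% of 27025 had a match (3.97% of 32851 promoter windows), and 0 of 14 is near that share. Another search was for the element of the nuclear respiratory factor NRF-1 (GCGCA and GCGC with any base between them, on both strands). It gave matches in 3 of 13 cytosolic or dual genes (Farsb, Kars and Tars) and 2 of 14 mitochondrial genes (Iars2 and Mars2). The background was 5.19% of genes and 4.6% of windows. Cars, Hars, Lars, Nars, Rars, Vars, Wars and Hars2 had no window. The 5 windows with TGATGNAA are shown because they hold the match. Its absence from the mitochondrial windows, near the background share, does not separate the cytosolic and mitochondrial sets. Capitals mark the match, which lies on the plus strand of the window in Yars and on its minus strand in the other 4 genes, and the start site is base 251.
Aars: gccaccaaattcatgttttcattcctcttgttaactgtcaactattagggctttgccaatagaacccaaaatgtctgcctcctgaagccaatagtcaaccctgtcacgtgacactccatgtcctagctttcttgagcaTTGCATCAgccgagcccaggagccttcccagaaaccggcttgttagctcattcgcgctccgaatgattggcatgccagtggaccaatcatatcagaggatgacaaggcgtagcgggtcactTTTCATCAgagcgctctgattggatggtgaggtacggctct
Gars: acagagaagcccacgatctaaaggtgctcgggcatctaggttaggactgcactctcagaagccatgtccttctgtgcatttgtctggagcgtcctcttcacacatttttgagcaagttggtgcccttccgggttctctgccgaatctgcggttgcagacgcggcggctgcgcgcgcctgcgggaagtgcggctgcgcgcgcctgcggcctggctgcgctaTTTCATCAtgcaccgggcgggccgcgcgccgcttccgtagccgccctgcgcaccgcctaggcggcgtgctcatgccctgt
Iars: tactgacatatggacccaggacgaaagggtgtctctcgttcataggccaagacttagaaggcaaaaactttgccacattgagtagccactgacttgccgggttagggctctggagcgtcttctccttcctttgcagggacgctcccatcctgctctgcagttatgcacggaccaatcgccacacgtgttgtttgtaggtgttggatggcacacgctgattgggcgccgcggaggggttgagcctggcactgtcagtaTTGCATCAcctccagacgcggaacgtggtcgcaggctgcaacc
Tars: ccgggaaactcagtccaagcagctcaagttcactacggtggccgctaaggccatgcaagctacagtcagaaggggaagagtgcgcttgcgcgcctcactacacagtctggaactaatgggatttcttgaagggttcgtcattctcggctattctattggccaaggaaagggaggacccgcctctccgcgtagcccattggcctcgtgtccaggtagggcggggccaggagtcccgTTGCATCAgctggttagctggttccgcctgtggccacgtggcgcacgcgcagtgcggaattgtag
Yars: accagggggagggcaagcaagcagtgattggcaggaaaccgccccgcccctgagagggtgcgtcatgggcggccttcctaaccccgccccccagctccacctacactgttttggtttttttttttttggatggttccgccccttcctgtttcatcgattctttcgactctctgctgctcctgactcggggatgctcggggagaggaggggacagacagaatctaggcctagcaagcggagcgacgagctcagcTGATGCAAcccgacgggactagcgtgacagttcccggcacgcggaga

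In these windows, the match begins at base 139 and at base 260 in Aars (chr8:111033592-111033891, plus strand), at base 221 in Gars (chr6:55037751-55038050, plus strand) and at base 258 in Iars (chr13:49681880-49682179, plus strand). It begins at base 236 in Tars (chr15:11399609-11399908, minus strand) and at base 254 in Yars (chr4:129189653-129189952, plus strand). A match of letters is a description of the window and not a measured binding site. The 5 genes with a match had mean levels of 6.2 RPKM (Aars), 18.3 RPKM (Gars), 31.2 RPKM (Iars), 4.55 RPKM (Tars) and 7.48 RPKM (Yars). The other cytosolic and dual genes with a window ranged from 1.04 RPKM (Farsa) to 16.7 RPKM (Farsb), so the levels of both sets overlapped. The highest library was not the same for the 5 genes: replicate 1 for Iars and Yars and replicate 2 for Aars, Gars and Tars.

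Lars2, the mitochondrial leucine enzyme, stood apart from every other member. It had 18835, 21538 and 17523 counts in replicates 1, 2 and 3, or 225, 220 and 203 RPKM, and ranked 27th by mean CPM among the 14036 genes with at least 10 counts. The 3 libraries were close together, with a CV of 5.41%. Lars2 took 94.6%, 94.5% and 95.4% of all counts on mitochondrial synthetase genes, and 63.1% to 65.4% of the counts on all 35 members. The gene (ENSMUSG00000035202.8) lies on the plus strand of chromosome 9 at positions 123366927 to 123462666 in mm10, and no stretch of 75 bases in its longest coding transcript was identical to another annotated transcript. That transcript has 3894 bases, against 11089 bases over all exons, and the other exon bases were not searched. The libraries also held 163912, 212453 and 182158 counts on Rn45s, a ribosomal RNA precursor row, which gives 11.5, 10.1 and 9.62 Lars2 counts per 100 Rn45s counts. The transcripts searched held no full ribosomal RNA precursor, so whether ribosomal RNA reads add to the Lars2 row was not tested.

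Of the other 14 mitochondrial genes, Yars2 and Iars2 had a mean above the median of all genes, which was 3.36 to 3.47 RPKM over the libraries, and 12 had a mean below it. Yars2 for tyrosine (7.26 ± 4.16 RPKM; SD, n = 3), Iars2 for isoleucine (4.33 ± 1.44 RPKM) and Nars2 for asparagine (3.13 ± 0.906 RPKM) were the highest of them and had counts in every library. Iars2 shares 24.2% of its exon bases with other genes, 2034 bases of them with Rab3gap2 on the opposite strand, and reads there cannot be assigned without a strand setting. Ears2 for glutamate had 0, 328 and 62 counts in replicates 1, 2 and 3, Sars2 for serine 92, 0 and 63, Fars2 for phenylalanine 0, 0 and 80, Hars2 for histidine 0, 4 and 55, and Mars2 for methionine 0, 63 and 1. These 5 genes each had a library at 0 and another with at least 55 counts, so their means describe no library well. Rars2 for arginine (51, 31 and 32 counts), Wars2 for tryptophan (72, 35 and 42 counts) and Vars2 for valine (70, 24 and 8 counts) were low in all libraries. Aars2 (1, 4 and 16 counts), Tars2 (9, 4 and 16 counts) and Cars2 (2, 1 and 1 counts) were near the limit of detection. The cytosolic genes summed to 1081, 1107 and 1134 CPM, against 2637, 2586 and 2357 CPM for the mitochondrial genes with Lars2 and 143, 141 and 108 CPM without it. The cytosolic sum was thus 7.54, 7.84 and 10.5 times the mitochondrial sum without Lars2, and the sums did not overlap. These sums are not scaled by length.

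The same contrast held for most pairs of enzymes that charge the same amino acid. Of 15 such pairs, the cytosolic gene had the higher mean log2(RPKM + 0.1) in 14, and it was higher in every library in 11. In 12 pairs the mean difference in its favour was larger than the SD. By library, it was higher in 14, 13 and 12 pairs in replicates 1, 2 and 3. In the asparagine and isoleucine pairs, Nars had 58.2, 85.8 and 58.5 RPKM, against 2.19, 3.99 and 3.22 RPKM for Nars2. The log2 difference was 4.40 ± 0.27 (SD, n = 3). Iars had 38.4, 20.8 and 34.4 RPKM, against 5.87, 4.07 and 3.03 RPKM for Iars2, a log2 difference of 2.82 ± 0.58. Neither pair overlapped. The leucine and tyrosine pairs, counted about as well, differed by -5.02 ± 0.42 and 0.06 ± 0.10. Flipping the signs of 3 differences in all ways (an exact permutation test, two-sided) gives no p below 0.25, which every pair of a single sign reached (0.3125 after Benjamini-Hochberg adjustment over the 15 pairs), so differences are read against their SD.

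Pairs with a poorly counted mitochondrial gene had large differences whose size depends on the pseudocount. Hars exceeded Hars2 by 5.92 ± 1.53, Mars exceeded Mars2 by 5.15 ± 1.59, Aars exceeded Aars2 by 4.71 ± 1.06 and Tars exceeded Tars2 by 3.92 ± 1.66 on the log2(RPKM + 0.1) scale (SD, n = 3 libraries). With a pseudocount of 1 these differences were 3.87, 2.76, 2.60 and 2.09. Wars exceeded Wars2 by 3.41 ± 1.62, and no value of Wars was as low as any of Wars2. Sars against Sars2 (3.36 ± 2.29) and Eprs against Ears2 (3.42 ± 3.19) rested on a mitochondrial gene with 0 counts in a library. Without replicate 1, in which Ears2 had no count, Eprs exceeded Ears2 by 1.69. Without replicate 2, in which Sars2 had none, Sars exceeded Sars2 by 2.05. Cars had 0.101, 0.155 and 1.05 RPKM against 0.0366, 0.0157 and 0.0177 RPKM for Cars2, which is no more than 2 counts in any library.

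The tyrosine, arginine and valine pairs had the smallest mean differences, and the leucine pair was inverted. The phenylalanine pair had the widest spread between libraries. Yars had 12, 6.66 and 3.82 RPKM in replicates 1, 2 and 3, against 11.6, 6.74 and 3.38 RPKM for Yars2. Both genes were highest in replicate 1 and lowest in replicate 3, and their log2 difference was 0.06 ± 0.10. Scaled by the longest coding transcript in place of all exons, the difference was 0.92, so the match depends on the length used. Rars (3.24, 3.48 and 1.79 RPKM) exceeded Rars2 (2.44, 1.27 and 1.48 RPKM) in each library, by 0.68 ± 0.62, with overlapping ranges. Vars (2.55, 1.01 and 0.183 RPKM) and Vars2 (1.7, 0.499 and 0.188 RPKM) differed by 0.48 ± 0.46 and in no common direction. Farsa against Fars2 gave 1.40 ± 3.61, and -0.28 without replicate 2. Lars had 7.15, 4.86 and 8.01 RPKM, against 225, 220 and 203 RPKM for Lars2, a log2 difference of -5.02 ± 0.42.

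**Figure D2:**
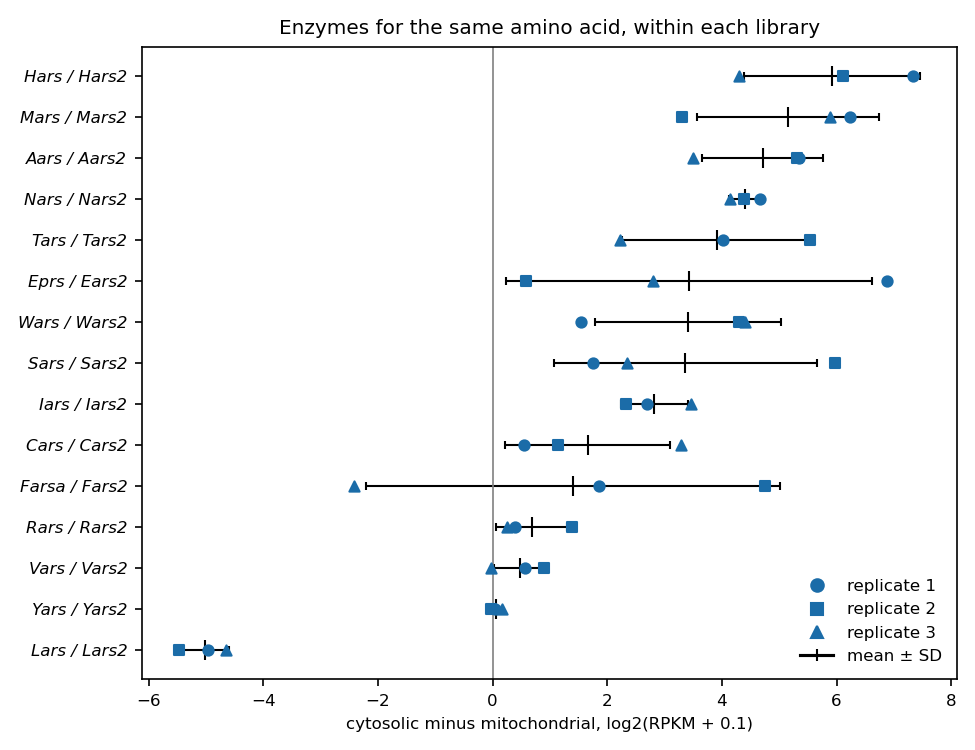
Difference between the cytosolic and the mitochondrial gene for the same amino acid within each library, on the log2(RPKM + 0.1) scale; symbols are the 3 libraries and bars are means ± SD. Differences lie right of 0 for 14 of 15 pairs by their mean (12 by more than their SD), near 0 for Yars and Yars2 (0.06), and far left for Lars and Lars2 (-5.02).

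Both subunits of cytosolic phenylalanyl-tRNA synthetase, an enzyme built of equal numbers of the alpha subunit Farsa and the beta subunit Farsb, were counted very unequally. Farsa had 9, 104 and 9 counts in replicates 1, 2 and 3, or 0.263, 2.6 and 0.255 RPKM. Farsb had 289, 518 and 264 counts, or 14.6, 22.4 and 12.9 RPKM. Farsa was lower in 3 of 3 libraries without overlap, and both genes were highest in replicate 2. The log2 difference of Farsa minus Farsb was -4.53 ± 1.28 (SD, n = 3; exact permutation p = 0.25, two-sided, the smallest possible), and -3.77 with coding transcript lengths. Of the Farsb exon bases, 9.47% are shared with Sgpp2 on the opposite strand. Farsa (ENSMUSG00000003808.18) lies on the plus strand of chromosome 8 at positions 84856989 to 84869257 in mm10, and Farsb (ENSMUSG00000026245.16) on the minus strand of chromosome 1 at positions 78417975 to 78488897.

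Enzymes of the multisynthetase complex had a median close to that of the enzymes outside it. The 8 enzymes Iars, Eprs, Kars, Mars, Lars, Dars, Rars and Qars had a median log2(RPKM + 0.1) of 2.88, 2.59 and 2.87 in replicates 1, 2 and 3. The 12 cytosolic and dual genes outside the complex had 2.98, 2.95 and 3.14, the higher median in each library. Within the complex, means ranged from 1.61 RPKM for Qars to 31.2 RPKM for Iars. The scaffold genes were lower than most of the enzymes: Aimp1 was at 1.1 ± 0.489 RPKM (SD, n = 3), Eef1e1 at 1.32 ± 1.22 RPKM and Aimp2 at 2.37 ± 2.08 RPKM. Aimp2 had 49, 0 and 41 counts and shares 29.4% of its exon bases with Eif2ak1 on the opposite strand.

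By catalytic class, the 16 class II genes had medians of 2.03, 2.34 and 2.09 on the log2(RPKM + 0.1) scale, and the 18 class I genes 1.57, 1.95 and 1.25. Class II was higher in each library. Mitochondrial genes make up a larger share of the class I list, and the classes were not compared within a compartment. Eprs joins a domain of each class and was left out of both. A list of 6 cytosolic or dual genes linked to peripheral neuropathy in humans, which may not be complete, held Aars, Gars, Hars, Mars, Wars and Yars. Each had at least 10 CPM, against 50.9% of all genes with any count. The median of the 6 genes was 3.25, 3.40 and 3.33. This lies above the median of the cytosolic list, which was 2.62, 2.81 and 2.87 and which also holds these genes except Gars.

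The 3 libraries agreed closely for some synthetase genes and differed many-fold for others. Eprs had 212, 198 and 204 CPM in replicates 1, 2 and 3, a CV of 3.4%, and Mars had 25.3, 24.6 and 22.3 CPM, a CV of 6.45%. These libraries nearly coincide. In contrast, Dars had 14.7, 5.79 and 49.5 CPM, Wars 16.7, 51.3 and 73.4 CPM, and Vars 14.3, 5.67 and 1.03 CPM. In these genes a different library was low each time. Highest and lowest library differed less than 2-fold in 14 members, against 23.3% of the 14036 genes with at least 10 counts. The 14 include Aars, Farsb, Iars, Lars, Nars, Gars, Kars and Lars2. They differed more than 10-fold in 4 members with no library at 0 (Cars, Farsa, Vars and Aars2), against 15.7% of those genes, and 5 further members were at 0 in a library. Among the 34 members with at least 10 counts in all, those at 0 in a library were 5, against 21.1% of the 14036 genes with as many counts. All 5 were mitochondrial.

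The library with the highest level was spread evenly over all the synthetases, but unevenly within the class I and class II lists. Over all of them, the highest CPM fell in replicate 1 for 12 of these 34 members, in replicate 2 for 11 and in replicate 3 for 11, close to the 33.8%, 33.1% and 33.1% of all genes. Class II genes were highest in replicates 1, 2 and 3 in 1, 8 and 7 of 16 cases, and class I genes in 11, 3 and 4 of 18. Cytosolic genes were highest in these replicates in 5, 6 and 7 of 18 cases, and mitochondrial genes in 8, 3 and 4 of 15. These splits were not tested. Of 27 members with at least 10 counts in 2 libraries, 25 varied more than Poisson sampling of the counts allows (chi-square, adjusted by Benjamini-Hochberg, threshold 0.05), near the background of 96.5% of 11168 genes. The exceptions were Eprs and Mars (adjusted p = 0.15 and 0.46). Aars2, Cars, Cars2, Fars2, Farsa, Hars2, Mars2 and Tars2 were not tested for lack of counts. By the quasi-likelihood dispersion of edgeR, none of the 27 was more variable than genes of its level at an adjusted p under 0.05 (0% of all genes), and limma called none. At an unadjusted p under 0.05, edgeR and limma each gave 1 member, which for edgeR was Ears2, against 4.27% of all genes for edgeR. The quasi-likelihood ratio lay below the trend in 22 of the 27 members, against 58.1% of all genes, with a median ratio of 0.43 in members and 0.76 in all genes tested with a known length. The members above the trend were Dars, Ears2, Sars2, Vars and Wars.

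**Figure D3:**
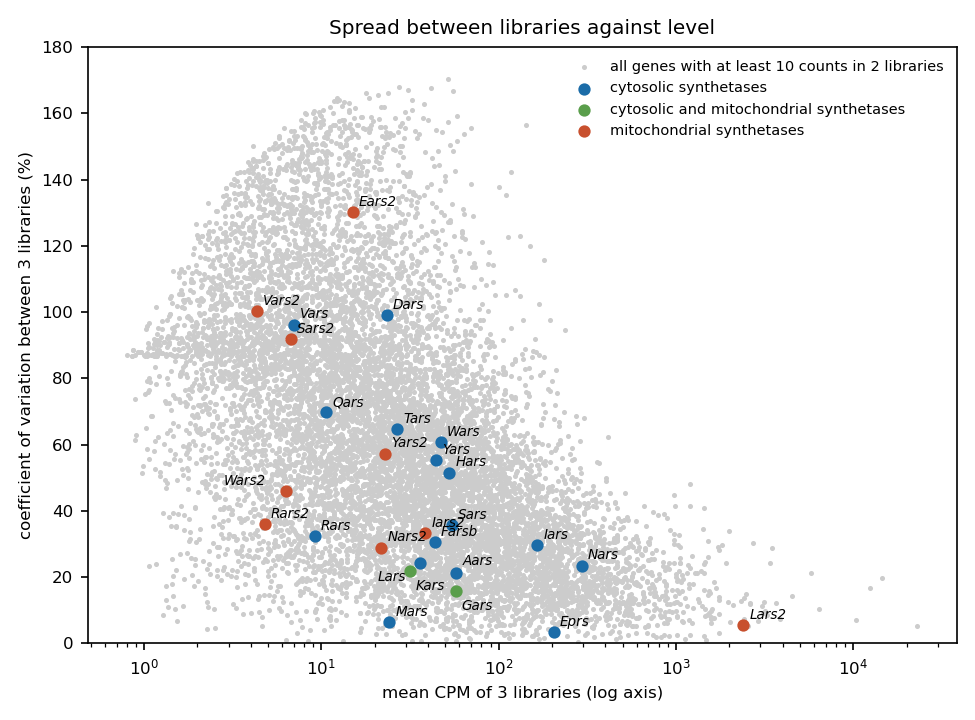
Coefficient of variation between the 3 libraries, in percent, against mean CPM on a log axis; grey points are the 11168 genes with at least 10 counts in 2 libraries and coloured points are the 27 synthetase genes among them. Eprs (3.4%), Lars2 (5.41%) and Mars (6.45%) lie at the bottom and Ears2 (130%) at the top.

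Of the summed level of the cytosolic genes, 1107 ± 26.4 CPM (SD, n = 3), Nars, Eprs and Iars averaged 294, 205 and 165 CPM. Nars was highest in replicate 2, where Iars was lowest.

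Genes that act beside the synthetases covered a wide range. Of the glutamyl-tRNA amidotransferase, which completes mitochondrial glutaminyl-tRNA after Ears2, the subunit gene Gatc had 1068, 2546 and 821 counts in replicates 1, 2 and 3, or 99.4 ± 54.1 RPKM (SD, n = 3). The other subunit genes were far lower, Gatb with 161, 23 and 2 counts (1.88 ± 2.68 RPKM) and Qrsl1 with 32, 61 and 4 counts (1 ± 0.83 RPKM). Gatc was thus above both partners in every library. Of 11 other charging and editing genes, 4 had at least 10 CPM, against 50.9% of all genes with any count. The highest were Tarsl2, a second cytosolic threonine enzyme (694, 70 and 131 counts), and Dtd1, which removes D-amino acids from transfer RNA (32.4 ± 12.7 CPM). Pars2, the mitochondrial proline enzyme, was the lowest with 0, 1 and 0 counts.

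The 18 genes of the ATF4 amino acid response had a median of 2.48, 2.27 and 1.06 RPKM in replicates 1, 2 and 3, below that of the cytosolic synthetases in each library. Of the 18, 9 had at least 10 CPM, near the 50.9% of all genes with any count. The highest were Psat1, a serine synthesis enzyme (232 ± 87.3 CPM; SD, n = 3), Slc7a5, an amino acid transporter (78.8 ± 25.9 CPM), and Atf4 itself (285, 362 and 788 counts). Trib3, a stress-induced pseudokinase gene, had no count in any library. Among 7 genes that sense uncharged transfer RNA, other stress or stalled ribosomes, 6 had at least 10 CPM. The share over all genes with any count was 50.9%. The kinase gene Eif2ak1 was the highest at 213 ± 68.4 CPM, followed by Gcn1l1, the partner of GCN2, at 31.5 ± 11.8 CPM and the ribosome rescue factor gene Gtpbp2 at 355, 196 and 71 counts. The lowest was the kinase gene Eif2ak3 at 5.22 ± 2.59 CPM. In none of these lists did edgeR call a gene more variable than others of its level at an adjusted p under 0.05 (0% of all genes).

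**Figure D4:**
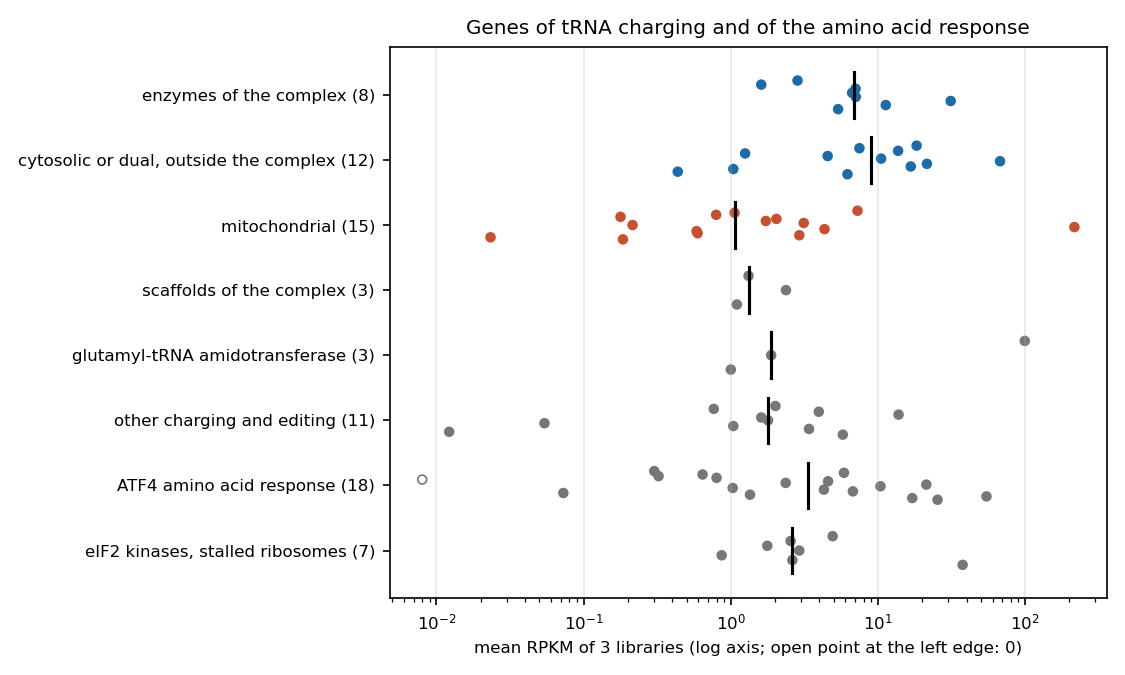
Mean RPKM of 3 libraries on a log axis for each gene of the synthetase lists and of 5 related lists, with the number of genes in brackets; black bars are medians of the plotted means. The medians of both cytosolic groups lie right of the mitochondrial median, Lars2 (216 RPKM) lies far right in its group, and Gatc (99.4 RPKM) stands apart from its partners.

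Shared exons limit the precision of some levels. Of the 35 members, 13 share exon bases with another annotated gene, mostly on the opposite strand, and 11 share a stretch of 75 bases with the transcript of another gene. The histidine genes Hars and Hars2 overlap each other by 195 bases, Mars overlaps Ddit3 by 68 bases, and Aars shares 1326 bases with Exosc6 on the same strand.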

How the data were processed

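RNA from 3 immunopurified libraries of a single group was analysed. Each deposited table holds raw read counts by gene symbol for 1 library. Per the submitters' processing notes, STAR 2.0.0e, HTSeq and the build mm10 were used. For annotation, strand setting and filters, nothing is given in the sources used here. Summary rows were left out: in replicates 1, 2 and 3, 50.2%, 44.1% and 44.7% of counted reads had no feature and 1.77%, 1.94% and 1.88% were ambiguous.

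CPM used TMM library sizes (edgeR 4.0.16, R 4.3.3). RPKM used the union of exons in GENCODE M21, matched by symbol for 23161 symbols, with a pseudocount of 0.1 on the log2 scale. RPKM assumes that the counted gene models resemble this annotation. Differences carry the SD between libraries and an exact permutation test that flips signs. Spread was tested for every gene that reached 10 counts in 2 libraries, with Benjamini-Hochberg adjustment. The tests were a Poisson chi-square test, edgeR's quasi-likelihood dispersion (intercept only) and limma 3.58.1. The Poisson and edgeR tests were also run on simulated counts. These had less spread than the edgeR trend of every member tested, so they do not show the power at the real spread. Intervals and limits cover counting error only.

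Every member is named; cell type marker lists are given as sums; of other lists, all genes up to 5 are named, otherwise the 3 highest and the lowest by mean CPM, except 1 gene that is not reported here. The members and lists were chosen with earlier results of these data known. Alternatives were DESeq2 1.42.0 size factors, other pseudocounts, lengths and filters, and leaving out each library.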

Additional observations from a re-analysis of the deposited data

How the results depend on the processing

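No paired analysis was possible because the 3 libraries form a single group. Of 146 alternative values, 144 kept their direction and, for the list difference and the counts, stayed within 1 SD or 1.5 times. The 112 alternative values of pair differences were read by their sign alone, and 11 moved by more than the SD between libraries: 5 with a pseudocount of 1 RPKM (Aars, Hars, Mars, Nars and Tars), 4 as CPM (Iars, Lars, Nars and Yars) and 2 with coding transcript lengths (Lars and Yars). The difference of the cytosolic minus the mitochondrial list median, 2.42, was 1.22 among members with at least 10 counts in every library, an alternative that removes low genes by construction, and 1.80 with a pseudocount of 1 RPKM. Leaving out Lars2, an alternative chosen after seeing the data, gave 2.92, and leaving out each library gave 2.0 to 2.71. Farsa minus Fars2 was reversed, at -0.28, without replicate 2, the library with most Farsa counts, and reached 3.31 without replicate 3. The cytosolic gene was higher in 14 pairs under every other setting and in 13 to 14 pairs when a library was left out. Farsa minus Farsb ranged from -5.27 to -4.13 without each library. The count of 21 members at 10 CPM or more was the same under all alternatives run. Members varying beyond counting error numbered 25, or 17 to 20 without a library, when fewer members were tested, and 32 without the count filter. None was called more variable than its level by edgeR under any setting, or by limma, which was run in the main setting only. With 3 libraries, the sign-flip permutation test of a difference cannot pass a threshold of 0.05. Depth limits the levels of Aars2, Tars2 and Cars2, which had at most 16 counts in a library.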
